A study of Mus musculus with 5 samples.

Results

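The genes described here encode subunits of the Polycomb repressive complexes and enzymes that add or remove methyl groups on histone lysines. They were chosen by name, 44 of the 23951 genes in the deposited table, and all 44 were found by symbol: 11 of Polycomb repressive complex 2 (PRC2), 17 of Polycomb repressive complex 1 (PRC1), 11 lysine demethylases and 5 methyltransferases of lysine 9 of histone H3 (H3K9). RNA was sequenced in 5 libraries of mouse cells of E14 origin, each a group of its own. Epiblast stem cells derived in culture from embryonic stem cells (EpiSCs) grew in N2B27 medium with FGF2 at 12 ng/ml and Activin A at 20 ng/ml. They were left untreated, or BMP-4 was added at 10 ng/ml and the cells were taken after 1.5 h or 24 h. E14 embryonic stem cells (ESCs) grew in basal medium to which LIF and 10 ng/ml BMP-4 were added, or with LIF at 1000 U/ml and 15% serum. The labels name more than 1 basal medium for the LIF+BMP-4 culture and do not say which was used or for how long BMP-4 was present.

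PRC2 places methyl groups on lysine 27 of histone H3. Ezh2 or its paralogue Ezh1 is the enzyme, Eed reads the mark and Suz12 holds the core together. PRC1 attaches ubiquitin to histone H2A through the ligases Rnf2 (Ring1b) and Ring1, in canonical forms that hold Cbx and Phc subunits or in variant forms that hold Rybp or Yaf2. In pluripotent cells both complexes sit on CpG-rich promoters of developmental genes. The methyltransferases and demethylases of the other lysines act beside them on silencing and on active promoters.

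Each group held 1 library, so differences had no replicate check and no p-value is given. Levels are FPKM (fragments per kilobase of transcript, scaled to library size), and differences are of log2(FPKM + 1), which understates changes of low genes. Folds are ratios of FPKM + 1. A gene is called 2-fold higher or lower only when at least 2-fold apart on that scale, among genes whose mean over the 5 libraries reaches 1 FPKM. Ranges in parentheses after a level are the interval deposited with it, which is no measured spread between cultures. The depth, estimated from the steps of low values, was about 9.80 M, 11.0 M and 13.3 M reads in the untreated, 1.5 h and 24 h EpiSC libraries, and 8.93 M and 8.51 M reads in ESCs in LIF+BMP-4 and in LIF+serum.

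The cell labels were checked against marker genes. Untreated EpiSCs had all 6 naive ESC markers 2-fold lower and all 6 primed epiblast markers 2-fold higher against both ESC libraries. Of 3 pluripotency markers shared by both states, 2 were also 2-fold lower in untreated EpiSCs. Against LIF+serum and LIF+BMP-4, Sox2 was 2.43-fold and 3.12-fold lower and Nanog 2.73-fold and 3.07-fold lower. Pou5f1 was 1.33-fold and 1.29-fold lower. Summed over each list, 6 endoderm markers reached 6.26 to 8.22 FPKM in the EpiSC libraries and 0.889 to 1.19 FPKM in the ESC libraries. The 6 neural markers reached 20.0 to 28.5 FPKM in EpiSCs and 45.4 to 76.2 FPKM in ESCs and included Tubb3 at 16.7 to 24.8 FPKM in EpiSCs and 35.3 to 71.9 FPKM in ESCs, with Neurog2 listed at 0 in every library. The 6 fibroblast markers reached 4.77 to 6.41 FPKM in EpiSCs and 2.70 to 4.54 FPKM in ESCs. Most of each sum was Thy1, at 2.72 to 4.68 FPKM in EpiSCs and 2.56 to 4.33 FPKM in ESCs. The other fibroblast markers were below 1 FPKM in every library, with Dcn listed at 0 in each. The 6 trophoblast markers reached 30.9 to 56.3 FPKM in EpiSCs and 7.49 to 11.9 FPKM in ESCs and included Eomes, which the primitive streak also expresses, at 19.7 to 28.7 FPKM in EpiSCs and 0.681 to 1.06 FPKM in ESCs, while Elf5 was listed at 0 in all but the 24 h library, where it was at 0.0361 FPKM. Of the other trophoblast markers, Cdx2 stood at 1.55 and 13.7 FPKM in untreated and 24 h EpiSCs and Tfap2c at 6.10 and 12.7 FPKM. Krt7 stood at 5.25 and 1.00 FPKM and Hand1 at 0.111 and 0.204 FPKM in the same libraries. After 24 h of BMP-4 the 6 mesoderm markers summed to 107 FPKM, against 15.0 FPKM in untreated EpiSCs. The part of such cells in the differences below was not tested, and in bulk RNA fewer cells of a type and less RNA per cell cannot be told apart.

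Of the 44 genes, 42 reached a mean of 1 FPKM and entered the comparisons. Cbx8 and Phc3, the remaining pair, stood below that mean, at 0.238, 0.497 and 0.467 FPKM (Cbx8) and at 0.675, 0.682 and 0.767 FPKM (Phc3) in the untreated, 1.5 h and 24 h EpiSC libraries. In the ESC libraries in LIF+BMP-4 and LIF+serum, Cbx8 stood at 0.436 and 1.01 FPKM and Phc3 at 0.974 and 0.901 FPKM. Bmi1 and Phf19 were also below 1 FPKM in all 3 EpiSC libraries and passed through their ESC values, so that they could enter only by being higher in ESCs. At the other end, 26 of the 44 genes were at 10 FPKM or more in every library. The plot of levels by library shows that the EpiSC libraries clustered closely for most genes, while the gap to the ESC libraries varied from gene to gene.

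**Figure D1:**
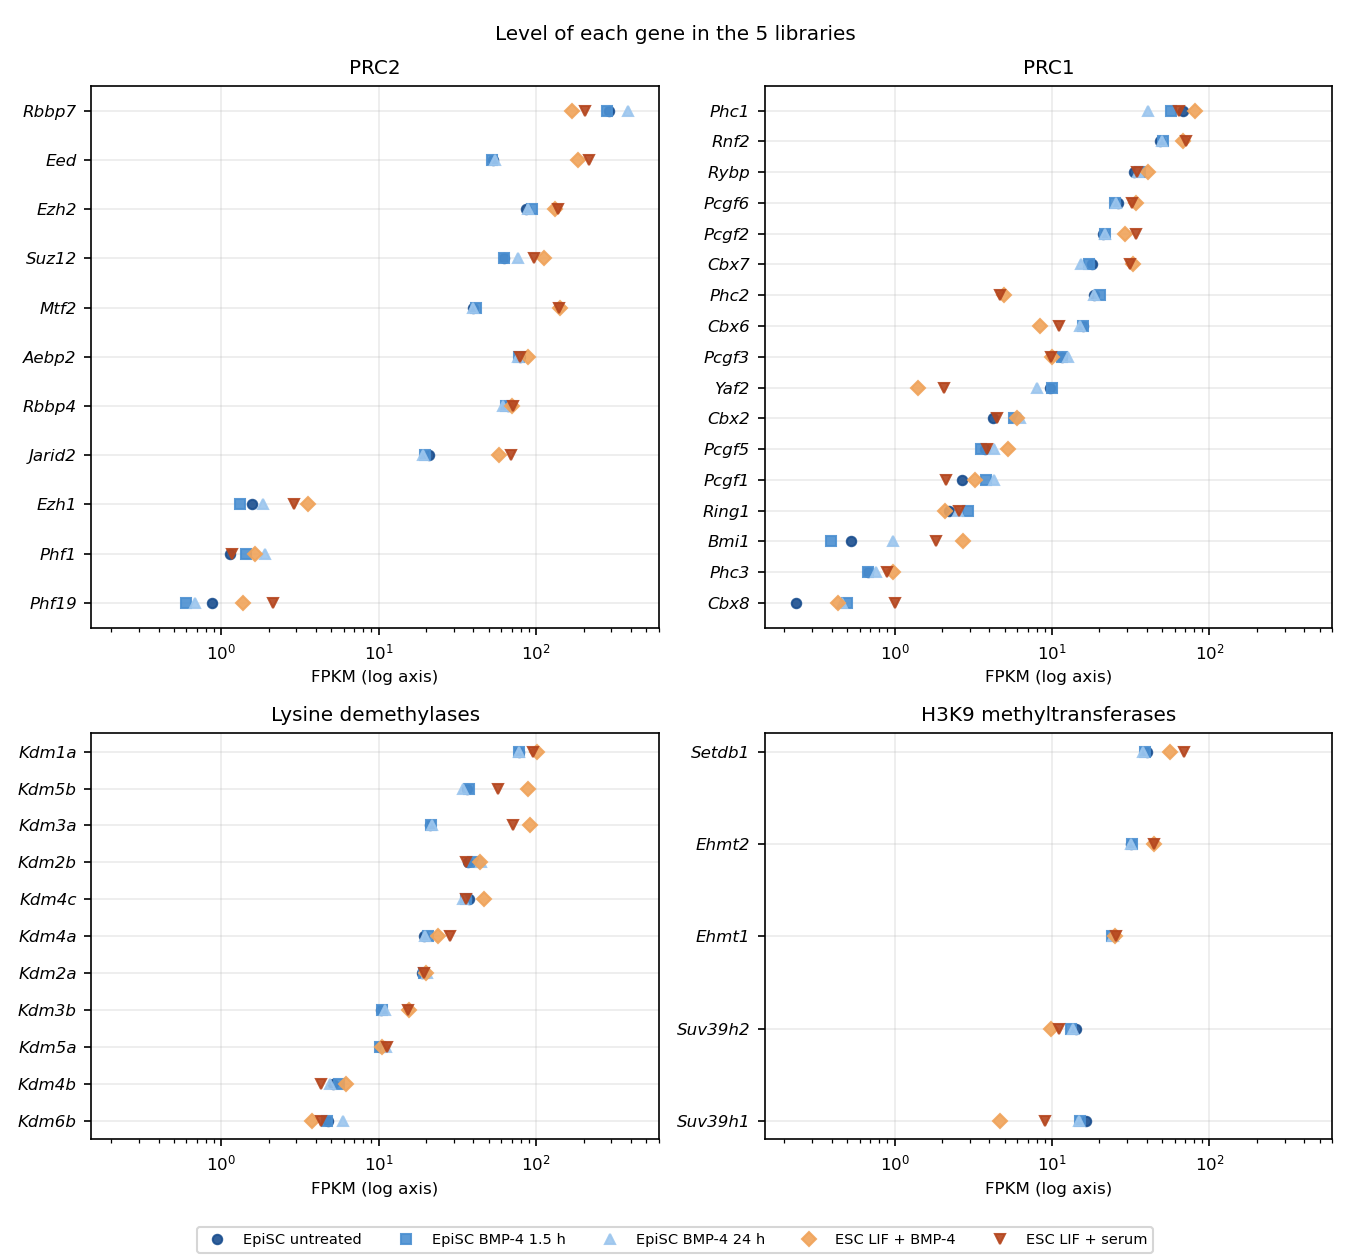
Level of each of the 44 genes (FPKM, log axis) in the 5 libraries, by complex or enzyme class and sorted by mean level. Eed, Mtf2, Jarid2 and Kdm3a show EpiSC points well left of the ESC points, Phc2 and Yaf2 show them well to the right, and Aebp2, Rbbp4 and Ehmt1 show nearly coincident points.

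Untreated EpiSCs were compared with each ESC library to describe these genes in the primed and the naive state of pluripotency. The EpiSCs grew with FGF2 and Activin A and the ESCs with LIF, so state and culture conditions cannot be told apart. Against ESCs in LIF+serum, 4 of 42 genes were 2-fold lower (Eed, Mtf2, Kdm3a and Jarid2; over all genes compared 9.55% were lower) and 2 were 2-fold higher (Yaf2 and Phc2; 11.6% of all genes). Members 2-fold lower with deposited intervals apart numbered 4 of 42, against 2.84% of all genes. Those higher with intervals apart numbered 0 of 42, against 2.68% of all genes. Over all genes, 313 of the 1051 lower and 295 of the 1272 higher genes had intervals apart. Against ESCs in LIF+BMP-4, 6 of 42 were 2-fold lower (the same 4 with Bmi1 and Kdm5b; 10% of all genes) and 3 were 2-fold higher (Yaf2, Phc2 and Suv39h1; 11% of all genes). Bmi1 passed the filter only through its ESC values. Against LIF+BMP-4, lower members with intervals apart numbered 3 of 42 (Eed, Mtf2 and Kdm3a), against 3.11% of all genes. Higher members with intervals apart numbered 0 of 42, against 2.39% of all genes. Over all genes, 342 of the 1104 lower and 263 of the 1209 higher genes had intervals apart. At 2-fold the members' shares were below those of all genes for higher calls and near or somewhat above them for lower calls. Both comparisons use the same untreated EpiSC library and are therefore not independent. Calls with intervals apart also depend on level, and the shares of all genes were not matched for level. The upper bound of members lay a median of 105% to 113% above the value at 1 to 5 FPKM. At 20 to 100 FPKM it lay 50.6% to 52.3% above. In ESCs, Phc2 and Yaf2 stood at 1.40 to 4.95 FPKM, while Eed, Mtf2, Jarid2 and Kdm3a stood at 58.5 to 218 FPKM.

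At a margin of 1.5-fold, 13 of 42 genes were lower than in ESCs in LIF+serum, against 18% of all genes, and 3 were higher, against 20.3%. PRC2 held 7 of these 13 lower genes. Phf19 among the 7, and Bmi1 among the 13, passed the filter only through their ESC values. Against ESCs in LIF+BMP-4 the counts at 1.5-fold were 10 lower (18% of all genes) and 5 higher (19.6%). Bmi1 was among these 10 as well. The median log2 difference over the 42 genes was -0.12 against LIF+serum and -0.31 against LIF+BMP-4, while that of all genes compared was -0.01 and 0.00. By class, the median against LIF+serum was -0.61 for PRC2, -0.06 for PRC1, -0.14 for the demethylases and -0.05 for the H3K9 methyltransferases. When each library was divided by its total FPKM, which moved the median of all genes by 0.12, the median over the 42 genes against LIF+serum became -0.000113 and that of the demethylases -0.02, while the PRC1 and H3K9 medians changed sign to 0.07 and 0.08. That of PRC2 was -0.54 on that scale, and that of all genes 0.10. Against LIF+BMP-4 the class medians were -0.61, -0.28, -0.28 and -0.03 in the same order of classes, and division by total FPKM turned the last to 0.03.

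All 3 EpiSC libraries lay below both ESC libraries for 22 of 42 genes, against 35.7% of all genes, and above both for 8 of 42, against 34.9% of all genes. In PRC2 the lower pattern held for 9 of 11 genes, all but Rbbp7 and Phf1. Phf19 among these 9, and Bmi1 among the 22, passed the filter only through their ESC values. Divided by total FPKM, 19 of 42 remained lower, without Rbbp4, Aebp2 and Ehmt1, against 29.9% of all genes on that scale, and the same 8 genes were higher, against 40.9% of all genes. With a margin of 2-fold between every EpiSC and every ESC library, 4 genes were lower (Eed, Jarid2, Mtf2 and Kdm3a; 6.62% of all genes) and 2 higher (Phc2 and Yaf2; 7.21% of all genes). The libraries of 1 state differ in treatment or medium and are not replicates, so these counts are descriptions.

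**Figure D2:**
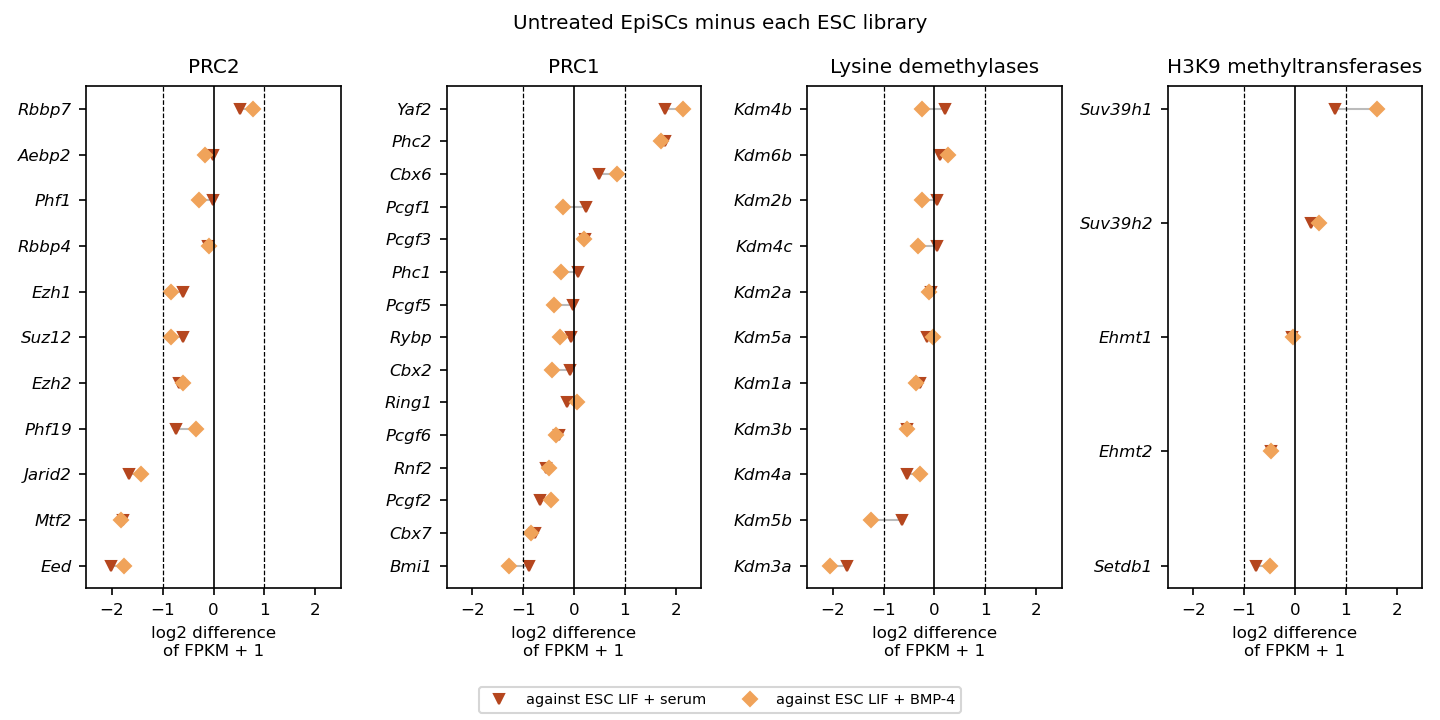
Difference of log2(FPKM + 1), untreated EpiSCs minus ESCs in LIF + serum (triangles) or minus ESCs in LIF + BMP-4 (diamonds), for the 42 genes compared; dashed lines mark 2-fold. Eed, Mtf2, Jarid2 and Kdm3a lie left of the lower line and Yaf2 and Phc2 right of the upper line for both symbols.

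The promoters of the 6 genes that kept a 2-fold margin in every pair of libraries are the regulatory sequences closest to these differences. The RefSeq table (build GRCm38.p6) held 5 of them, from 250 bases before to 50 bases after the first listed start, and Yaf2 is not shown. They are shown 5′ to 3′, with matches to any of 12 searched motifs in capitals.
Eed promoter (chr7:89980927-89981226, minus strand): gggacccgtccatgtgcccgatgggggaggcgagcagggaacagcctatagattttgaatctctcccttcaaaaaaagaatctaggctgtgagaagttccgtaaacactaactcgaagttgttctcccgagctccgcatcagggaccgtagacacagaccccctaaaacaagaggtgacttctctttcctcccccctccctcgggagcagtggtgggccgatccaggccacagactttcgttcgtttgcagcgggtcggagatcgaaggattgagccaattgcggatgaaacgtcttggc
Mtf2 promoter (chr5:108065424-108065723, plus strand): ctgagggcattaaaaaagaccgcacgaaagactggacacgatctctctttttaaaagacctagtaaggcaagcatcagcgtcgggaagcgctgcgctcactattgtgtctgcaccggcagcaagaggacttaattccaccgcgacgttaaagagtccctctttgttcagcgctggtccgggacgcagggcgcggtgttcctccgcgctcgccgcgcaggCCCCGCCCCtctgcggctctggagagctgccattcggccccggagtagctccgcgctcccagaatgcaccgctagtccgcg
Jarid2 promoter (chr13:44730524-44730823, plus strand): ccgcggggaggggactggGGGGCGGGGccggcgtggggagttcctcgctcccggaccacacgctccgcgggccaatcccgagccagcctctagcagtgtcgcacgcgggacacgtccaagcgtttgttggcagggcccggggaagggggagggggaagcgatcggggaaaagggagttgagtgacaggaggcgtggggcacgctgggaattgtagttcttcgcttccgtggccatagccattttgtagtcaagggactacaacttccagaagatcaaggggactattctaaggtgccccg
Kdm3a promoter (chr6:71632868-71633167, minus strand): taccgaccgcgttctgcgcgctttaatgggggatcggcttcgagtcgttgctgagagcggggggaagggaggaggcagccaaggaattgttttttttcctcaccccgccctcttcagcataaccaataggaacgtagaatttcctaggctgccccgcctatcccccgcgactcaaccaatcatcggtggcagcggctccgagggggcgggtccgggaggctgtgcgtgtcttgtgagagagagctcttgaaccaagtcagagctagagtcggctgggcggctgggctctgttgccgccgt
Phc2 promoter (chr4:128654452-128654751, plus strand): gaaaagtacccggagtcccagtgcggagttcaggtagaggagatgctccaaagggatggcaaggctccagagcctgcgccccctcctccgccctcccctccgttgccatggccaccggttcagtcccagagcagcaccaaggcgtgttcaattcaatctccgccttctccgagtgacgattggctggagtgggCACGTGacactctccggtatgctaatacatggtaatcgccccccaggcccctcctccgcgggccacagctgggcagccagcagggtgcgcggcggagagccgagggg

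The 12 motifs were searched on both strands: AAGGTCA (oestrogen-related receptors), ATGCAAAT (octamer), GGGTGTG (Kruppel-like factor core), TTTCCCGC and TTTGGCGC (E2F), TTCCNGGAA (STAT), CACGTG (E-box), the NRF1 palindrome, AAGATGGCG (YY1), CCGGAAGT (ETS), GGGGCGGGG (SP) and CTAATC (OTX). The first listed promoter was found for 35 of the 44 genes. GGGGCGGGG occurred in the Jarid2 promoter and, on the other strand, in that of Mtf2. It occurred in 12 of the 35 promoters (34.3%) and in 11.6% of 27025 promoters in the table. CACGTG occurred in the Phc2 promoter, in 8 of the 35 promoters (22.9%) and in 7.24% of all promoters. The Eed and Kdm3a windows held none of the 12 letter strings. These counts cover the first listed start only, and Kdm3a and Phc2 each have 3 listed starts. At their other starts, Kdm3a windows held GGGGCGGGG or GGGTGTG, and Phc2 windows held GGGGCGGGG or ATGCAAAT. The windows at the other listed starts of Jarid2 and Mtf2 held none, and Eed has 1 listed start. Of the 35 promoters, 31 (88.6%) had a CpG content of at least 0.6 of that expected from their C and G content, against 36.5% of all promoters in the table. The 5 printed promoters ranged from 0.613 (Phc2) to 1.09 (Mtf2) in that measure. The background shares cover all promoters in the table, with no filter on expression. A mean of 1 FPKM was reached by 42 of the 44 members, but by 11011 of the 23951 genes. Whether the shares differ from those of other expressed genes was not tested. These matches are descriptions of the letters in the windows.

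Among the PRC2 core genes, Eed differed most. Eed, the subunit that binds trimethylated lysine 27 (mm9 chromosome 7, 97103164 to 97129486), stood at 53.4 FPKM (23.8 to 82.9), 52.2 FPKM and 54.8 FPKM in the untreated, 1.5 h and 24 h EpiSC libraries, and at 183 FPKM (102 to 265) and 218 FPKM (124 to 312) in ESCs in LIF+BMP-4 and LIF+serum. The 2 states did not overlap, and the 3 EpiSC values lay close together. In untreated EpiSCs Eed was 4.03-fold lower than in LIF+serum and 3.39-fold lower than in LIF+BMP-4, with deposited intervals apart in both cases.

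The enzyme gene Ezh2 (chromosome 6, 47480273 to 47545029) stood at 85.8, 94.1 and 88.4 FPKM in the untreated, 1.5 h and 24 h EpiSC libraries and at 131 and 137 FPKM in ESCs in LIF+BMP-4 and LIF+serum. Its untreated value was 1.59-fold and 1.52-fold lower than in LIF+serum and LIF+BMP-4, with overlapping intervals. The scaffold gene Suz12 stood at 62.9, 62.2 and 76.9 FPKM in EpiSCs and at 113 and 96.4 FPKM in ESCs, in the same order of libraries. All EpiSC values of both genes were below all ESC values, by less than 2-fold. Ezh1, the paralogue known for its role in cells that divide little, was low throughout, at 1.31 to 1.84 FPKM in EpiSCs and 2.89 to 3.58 FPKM in ESCs. It made up 1.37% to 2.04% of the summed Ezh1 and Ezh2 FPKM in EpiSCs and 2.06% to 2.66% in ESCs.

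Because Eed differed more than its partners, the ratios of core subunits within a library differed between states. The FPKM of Eed was 0.848, 0.838 and 0.712 times that of Suz12 in the untreated, 1.5 h and 24 h EpiSC libraries, and 1.63 and 2.26 times in ESCs in LIF+BMP-4 and LIF+serum. Relative to Ezh2, Eed stood at 0.554 to 0.622 in EpiSCs and at 1.40 to 1.59 in ESCs. The ratio of Ezh2 to Suz12 overlapped between states, at 1.15 to 1.51 in EpiSCs and 1.16 to 1.42 in ESCs. These ratios do not depend on how libraries were scaled to each other.

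Rbbp4 and Rbbp7 encode histone chaperones that PRC2 shares with other complexes, among them NuRD. Rbbp4 stood at 61.7 to 66.2 FPKM in EpiSCs and 70.6 to 71.3 FPKM in ESCs, a small difference that changed sign against LIF+serum when libraries were divided by total FPKM. Rbbp7, on the X chromosome, was the PRC2 gene with higher values in EpiSCs, at 290.1, 280.4 and 385 FPKM in the untreated, 1.5 h and 24 h libraries, against 169 and 203 FPKM in ESCs in LIF+BMP-4 and LIF+serum. Its share of the summed Rbbp4 and Rbbp7 FPKM was 81.3% to 86.2% in EpiSCs and 70.6% to 74.0% in ESCs. Of the 36-base stretches of Rbbp7 transcripts, 9.97% also occur in Gm6382, so its level carries that uncertainty.

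**Figure D3:**
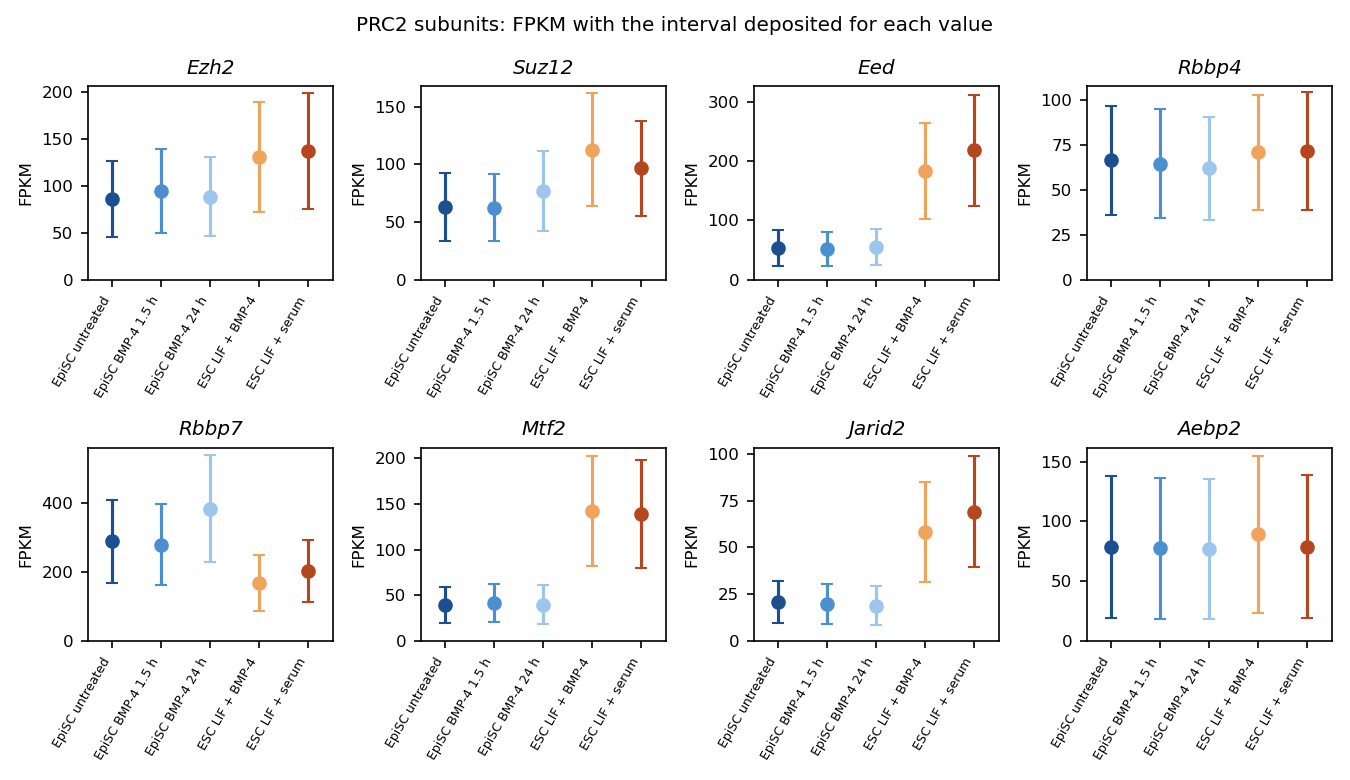
FPKM of 8 PRC2 genes in each library (points) with the interval deposited for each value (bars). Eed and Mtf2 bars of untreated EpiSCs end below the bars of both ESC libraries, Jarid2 bars overlap slightly with ESCs in LIF + BMP-4, and Aebp2 and Rbbp4 bars coincide.

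The accessory subunits, which steer PRC2 to its sites, split into genes with large and with small differences. Mtf2 (Pcl2, a Polycomb-like protein that binds CpG-rich DNA; chromosome 5, 108494693 to 108538238) stood at 39.6 FPKM (19.7 to 59.5), 41.4 and 40.0 FPKM in the untreated, 1.5 h and 24 h EpiSC libraries, and at 142 FPKM (82.3 to 202) and 139 FPKM (79.8 to 198) in ESCs in LIF+BMP-4 and LIF+serum. It was 3.45-fold lower in untreated EpiSCs than in LIF+serum and 3.53-fold lower than in LIF+BMP-4, with intervals apart. Jarid2, a cofactor needed for PRC2 recruitment in ESCs (chromosome 13, 44826143 to 45017012), stood at 21.003, 19.7 and 19.002 FPKM in EpiSCs and at 58.5 and 69.1 FPKM in ESCs, in the same order. It was 3.19-fold lower than in LIF+serum, with intervals apart, and 2.70-fold lower than in LIF+BMP-4, with overlapping intervals.

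Aebp2, a zinc finger partner of Jarid2 in PRC2, stood at 77.0 to 78.9 FPKM in EpiSCs and at 79.0 to 89.2 FPKM in ESCs. Among the 5 accessory genes Aebp2 was thus the most abundant transcript per length in EpiSCs. It held 55.1% to 55.7% of their summed FPKM there, against 27.2% to 30.4% in ESCs. Epop, a PRC2 partner described below, is not in that sum. It stood at 44.6 to 53.1 FPKM in EpiSCs and 216 to 247 FPKM in ESCs, above each of the 5 in ESCs. The share of Mtf2 in the sum of the 5 genes was 28.0% to 29.4% in EpiSCs and 47.8% to 48.6% in ESCs. That of Jarid2 was 13.7% to 14.8% in EpiSCs and 19.9% to 23.8% in ESCs. The other Polycomb-like genes, Phf1 and Phf19, were near 1 FPKM, and Mtf2 made up 93.9% to 95.3% of the 3 paralogues in EpiSCs and 97.7% to 97.9% in ESCs. Phf19 stood at 0.595 to 0.877 FPKM in EpiSCs and 1.37 to 2.12 FPKM in ESCs. Phf1 overlapped between states, at 1.14 to 1.90 FPKM in EpiSCs and 1.17 to 1.63 FPKM in ESCs.

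Of 15 PRC1 genes compared, all EpiSC libraries lay below both ESC libraries for 5 (33.3%), against 35.7% of all genes. They lay above both for 4 (26.7%), against 34.9% of all genes, so neither share exceeded that of all genes. Bmi1, among the 5, passed the filter only through its ESC values. The ligase gene Rnf2 stood at 48.2 to 50.7 FPKM in EpiSCs and 68.0 to 71.5 FPKM in ESCs, 1.47-fold lower in untreated EpiSCs than in LIF+serum. Its paralogue Ring1 was low and overlapped, at 2.21 to 2.95 FPKM in EpiSCs and 2.09 to 2.56 FPKM in ESCs, and Rnf2 held 94.5% to 95.6% of their sum in EpiSCs and 96.5% to 97.0% in ESCs.

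The Pcgf genes encode the RING partners that define the PRC1 subtypes, Pcgf2 and Bmi1 in canonical PRC1 and the others mainly in variant PRC1. Pcgf2 (Mel18) stood at 20.97 to 21.6 FPKM in EpiSCs and 29.2 to 34.1 FPKM in ESCs, and Pcgf6 at 25.0 to 26.4 FPKM in EpiSCs and 32.5 to 34.0 FPKM in ESCs. Together they held most of the summed Pcgf FPKM in both states. Pcgf3 was not called at 2-fold, at 11.5 to 12.7 FPKM in EpiSCs against 9.80 to 9.97 FPKM in ESCs, and its share of the sum was 17.5% to 18.3% in EpiSCs against 11.6% to 11.8% in ESCs. Pcgf5 and Pcgf1 overlapped between states. Bmi1 (chromosome 2, 18598645 to 18608256) stood at 0.527, 0.397 and 0.979 FPKM in the untreated, 1.5 h and 24 h EpiSC libraries and at 2.72 and 1.83 FPKM in ESCs in LIF+BMP-4 and LIF+serum, with overlapping intervals. Of its 36-base stretches 24.2% occur in other transcripts, mainly Gm5946, and 20.6% of those of Pcgf1 occur in Gm8930.

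The Cbx subunits read trimethylated lysine 27 through their chromodomains. Cbx7, the main Cbx protein of Polycomb in ESCs, stood at 17.9, 17.2 and 15.3 FPKM in the untreated, 1.5 h and 24 h EpiSC libraries and at 32.8 and 31.4 FPKM in ESCs in LIF+BMP-4 and LIF+serum. The untreated value was 1.71-fold lower than in LIF+serum and 1.79-fold lower than in LIF+BMP-4, with overlapping intervals. Cbx6 stood at 15.8, 15.6 and 15.0 FPKM in EpiSCs and at 8.42 and 11.0 FPKM in ESCs. Cbx7 therefore made up 41.4% to 46.9% of the summed FPKM of the 4 Cbx genes in EpiSCs and 65.5% to 68.8% in ESCs, while Cbx6 made up 40.0% to 41.5% in EpiSCs and 17.6% to 23.1% in ESCs. Cbx6 shares 4.88% of its 36-base stretches and its locus with Npcd, which stood at 7.56 to 10.6 FPKM in EpiSCs and 1.12 to 1.23 FPKM in ESCs, and the part of that gene in the Cbx6 values was not tested. Cbx2 overlapped between states, at 4.23 to 6.22 FPKM in EpiSCs and 4.49 to 6.03 FPKM in ESCs.

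The Phc genes encode the Polyhomeotic subunits whose SAM domains let PRC1 complexes polymerise. Phc2 (chromosome 4, 128331946 to 128430125) stood at 18.5 FPKM (5.98 to 31.1), 20.1 and 18.6 FPKM in the untreated, 1.5 h and 24 h EpiSC libraries, and at 4.95 FPKM (0.520 to 9.37) and 4.69 FPKM (0.437 to 8.94) in ESCs in LIF+BMP-4 and LIF+serum. It was 3.43-fold and 3.29-fold higher in untreated EpiSCs than in LIF+serum and LIF+BMP-4, with overlapping intervals. Phc1 stood at 67.7, 56.9 and 40.7 FPKM in EpiSCs and at 81.2 and 63.6 FPKM in ESCs. Phc2 thus held 21.3%, 25.8% and 30.9% of the summed Phc FPKM in the untreated, 1.5 h and 24 h EpiSC libraries, against 5.68% and 6.77% in ESCs in LIF+BMP-4 and LIF+serum.

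Rybp and Yaf2 are paralogues that occupy the same place in variant PRC1. Yaf2 (chromosome 15, 93114264 to 93167366) stood at 9.67 FPKM (1.61 to 17.7), 10.1 and 8.08 FPKM in the untreated, 1.5 h and 24 h EpiSC libraries, and at 1.40 FPKM (0 to 3.34) and 2.08 FPKM (0 to 4.51) in ESCs in LIF+BMP-4 and LIF+serum. It was 4.45-fold higher than in LIF+BMP-4 and 3.47-fold higher than in LIF+serum, with overlapping intervals. Rybp overlapped between states, at 33.3 to 35.999 FPKM in EpiSCs and 34.7 to 40.6 FPKM in ESCs, and shares 10.2% of its 36-base stretches with Rybp-ps. The share of Yaf2 in their sum was 18.7% to 22.5% in EpiSCs and 3.34% to 5.64% in ESCs. Rybp stayed the more abundant transcript of the pair per length in every library.

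**Figure D4:**
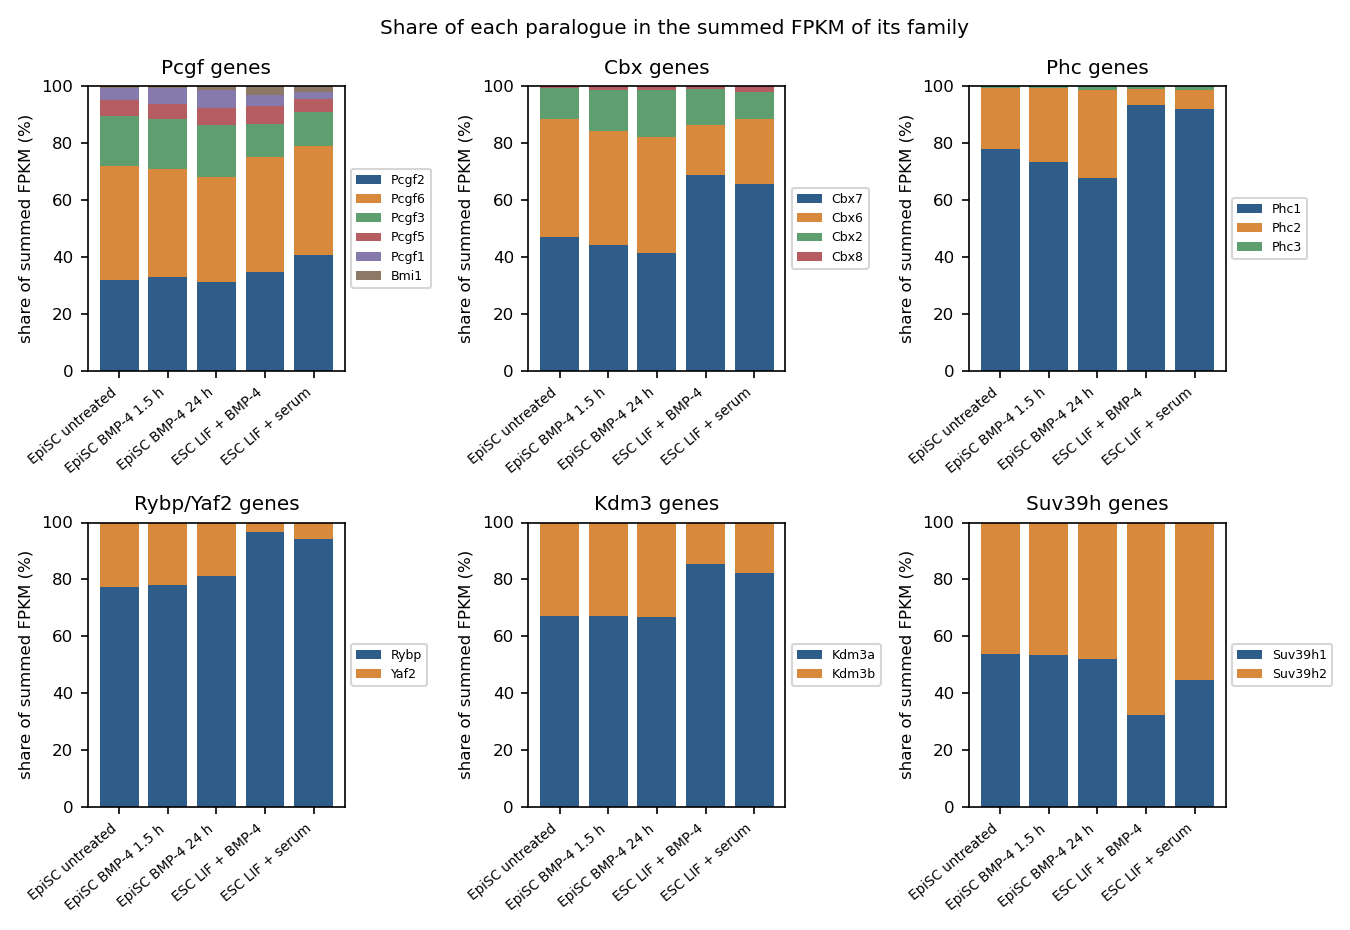
Share (%) of each paralogue in the summed FPKM of its family, in the 3 EpiSC and the 2 ESC libraries. Phc2, Yaf2, Cbx6 and Kdm3b take larger shares in the EpiSC bars than in the ESC bars, as does Suv39h1, and the Pcgf bars differ less.

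Among the lysine demethylases, Kdm3a differed most. Kdm3a removes mono- and dimethyl groups from H3K9 and is induced by hypoxia (chromosome 6, 71538964 to 71582911). It stood at 21.1 FPKM (9.28 to 32.9), 21.4 and 21.9 FPKM in the untreated, 1.5 h and 24 h EpiSC libraries, and at 91.1 FPKM (52.2 to 130) and 71.8 FPKM (40.0 to 104) in ESCs in LIF+BMP-4 and LIF+serum. The untreated value was 3.29-fold lower than in LIF+serum and 4.17-fold lower than in LIF+BMP-4, with intervals apart in both cases. Its paralogue Kdm3b stood at 10.4 to 10.9 FPKM in EpiSCs and 15.45 to 15.5 FPKM in ESCs. Kdm3a made up 66.7% to 67.1% of their sum in EpiSCs and 82.3% to 85.4% in ESCs.

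Kdm5b, a demethylase of trimethylated lysine 4, stood at 36.4, 37.3 and 34.4 FPKM in the untreated, 1.5 h and 24 h EpiSC libraries and at 88.1 and 56.9 FPKM in ESCs in LIF+BMP-4 and LIF+serum. The untreated value was 2.39-fold lower than in LIF+BMP-4 and 1.55-fold lower than in LIF+serum, with overlapping intervals. Its paralogue Kdm5a overlapped between states, at 10.2 to 11.2 FPKM in EpiSCs and 10.4 to 11.3 FPKM in ESCs. Kdm1a (LSD1, which acts on mono- and dimethylated lysine 4) was the most abundant demethylase, at 77.6 to 78.1 FPKM in EpiSCs and 94.9 to 101 FPKM in ESCs.

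The remaining demethylases were under 1.5-fold apart between untreated EpiSCs and either ESC library. Kdm4a, which acts on trimethylated lysines 9 and 36, stood at 19.3 to 20.6 FPKM in EpiSCs and 23.7 to 28.5 FPKM in ESCs. Kdm4c and Kdm4b overlapped between states, at 34.1 to 37.2 and 4.91 to 5.61 FPKM in EpiSCs and at 35.9 to 46.9 and 4.31 to 6.22 FPKM in ESCs. Kdm2b, the subunit that brings variant PRC1 with Pcgf1 to unmethylated CpG islands, overlapped as well, at 37.2 to 44.5 FPKM in EpiSCs and 35.6 to 44.2 FPKM in ESCs. Kdm2a stood at 18.7 to 20.3 FPKM in EpiSCs and 19.5 to 20.1 FPKM in ESCs. Kdm6b, a demethylase of lysine 27 that counteracts PRC2, stood at 4.71 to 5.91 FPKM in EpiSCs and 3.77 to 4.33 FPKM in ESCs, a small gap between states.

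Of the 5 H3K9 methyltransferases, 0 were 2-fold apart against LIF+serum, where 11.6% of all genes were higher and 9.55% lower. Against LIF+BMP-4, Suv39h1 alone was 2-fold higher and 0 were lower, where 11% of all genes were higher and 10% lower. With 5 genes, these counts are near the shares of all genes. Setdb1, which silences retroviral elements together with Trim28, stood at 38.1 to 40.2 FPKM in EpiSCs and 56.5 to 69.0 FPKM in ESCs, with untreated EpiSCs 1.70-fold below LIF+serum and 1.39-fold below LIF+BMP-4 and intervals overlapping. Of its 36-base stretches 9.47% occur in other transcripts, mainly Gm4349. Its span in the table overlaps that of Cers2, which ran the other way, at 44.6 to 49.9 FPKM in EpiSCs and 22.9 to 25.6 FPKM in ESCs. Ehmt2 (G9a) stood at 31.8 to 32.2 FPKM in EpiSCs and 44.4 to 44.7 FPKM in ESCs, under 1.5-fold apart with overlapping intervals. Its partner Ehmt1 (GLP) stood at 24.1 to 24.6 FPKM in EpiSCs and 25.2 to 25.5 FPKM in ESCs, a small gap that changed sign when libraries were divided by total FPKM.

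Suv39h1 and Suv39h2 trimethylate H3K9 in pericentromeric heterochromatin. Suv39h1 (X chromosome, 7638297 to 7651886) stood at 16.4 FPKM (5.80 to 26.96), 15.1 and 14.8 FPKM in the untreated, 1.5 h and 24 h EpiSC libraries, and at 4.70 FPKM (0.389 to 9.01) and 9.04 FPKM (2.37 to 15.7) in ESCs in LIF+BMP-4 and LIF+serum. The untreated value was 3.05-fold higher than in LIF+BMP-4 and 1.73-fold higher than in LIF+serum, with overlapping intervals. Suv39h2 stood at 13.2 to 14.2 FPKM in EpiSCs and 9.84 to 11.2 FPKM in ESCs, 1.25-fold and 1.40-fold apart between untreated EpiSCs and LIF+serum or LIF+BMP-4, with overlapping intervals and no 2-fold call. Suv39h1 held 52.1% to 53.6% of their sum in EpiSCs, against 32.3% in LIF+BMP-4 and 44.8% in LIF+serum.

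Further genes of these pathways came from lists of 19 other Polycomb genes, 12 other demethylases and 15 partners of H3K9 methylation. Of 16 other Polycomb genes compared, 2 were 2-fold higher and 1 was 2-fold lower in untreated EpiSCs against either ESC library, near the shares of all genes (11.6% higher and 9.55% lower against LIF+serum, 11% and 10% against LIF+BMP-4). The lower gene was Epop, listed as E130012A19Rik and paired with that name in the RefSeq table, which encodes a PRC2 partner of ESCs that also binds elongin. Epop stood at 44.6, 45.3 and 53.1 FPKM in the untreated, 1.5 h and 24 h EpiSC libraries and at 216 and 247 FPKM in ESCs in LIF+BMP-4 and LIF+serum, 5.43-fold lower than in LIF+serum with intervals apart. The higher genes were Sfmbt2, an MBT-domain Polycomb gene, and E2f6, a DNA-binding subunit of PRC1 with Pcgf6. Sfmbt2 stood at 13.8 to 14.5 FPKM in EpiSCs and 1.53 to 2.28 FPKM in ESCs, with intervals apart. E2f6 stood at 51.0 to 54.2 FPKM in EpiSCs and 16.7 to 17.2 FPKM in ESCs, with overlapping intervals. Of 10 other demethylases compared, 0 were 2-fold higher or lower against either ESC library, with medians of -0.07 against LIF+serum and 0.06 against LIF+BMP-4. Of 13 H3K9 partners compared, with medians of -0.25 against LIF+serum and -0.42 against LIF+BMP-4, 0 were higher, and 1 was lower against LIF+serum and 2 against LIF+BMP-4, where 9.55% and 10% of all genes were. The gene lower against both was Tasor, listed as Fam208a, a subunit of the silencing complex that recruits Setdb1, at 10.3 to 11.6 FPKM in EpiSCs and 26.2 to 28.8 FPKM in ESCs, with overlapping intervals.

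The treated EpiSC libraries were set against the untreated one to describe the response of these genes in the primed state. After 1.5 h, 0 of 42 genes were 2-fold higher and 0 lower, against 0.236% and 0.182% of all genes. After 24 h the counts were again 0 and 0 of 42, against 0.654% and 0.527% of all genes. With so few genes past 2-fold over the whole table, counts of 0 among 42 are near the background. Both times share the untreated library. Over the 42 genes the median difference was -0.00 at 1.5 h and 0.03 at 24 h, and over all genes it was -0.00 at both times. No p-value can be attached to these counts, since each group held 1 library.

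The widest difference after 24 h was that of Phc1, which was 1.65-fold lower than in untreated EpiSCs (40.7 and 67.7 FPKM), with overlapping intervals. It was the 1 member at least 1.5-fold lower, a margin reached by 1.75% of all genes, while 0 were 1.5-fold higher (2.19% of all genes), and its 1.5 h value of 56.9 FPKM lay between the others. Pcgf1 stood at 2.68, 3.79 and 4.26 FPKM in the untreated, 1.5 h and 24 h libraries and Cbx2 at 4.23, 5.71 and 6.22 FPKM, each under 1.5-fold apart. Rbbp7 was 1.33-fold higher after 24 h than in untreated EpiSCs. Eed, Mtf2, Jarid2 and Kdm3a, the genes 2-fold lower in every EpiSC library than in every ESC library, stood near their untreated values at both times. The times were also set against each other: 0 of 42 genes were 2-fold higher at 24 h than at 1.5 h and 0 lower, against 0.609% and 0.427% of all genes.

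The ESC libraries, LIF+BMP-4 over LIF+serum, differ in medium too, so BMP-4 and the absence of serum cannot be told apart. Of 42 genes, 0 were 2-fold higher and 0 lower, against 2.61% and 1.28% of all genes. Kdm5b was 1.54-fold higher in LIF+BMP-4 (88.1 and 56.9 FPKM), the 1 member past 1.5-fold in that direction, against 8.15% of all genes. Suv39h1 was 1.76-fold lower (4.70 and 9.04 FPKM), the 1 member past 1.5-fold in the other direction, against 5.08% of all genes. Intervals overlapped for both. Eed stood at 183 and 218 FPKM, Kdm3a at 91.1 and 71.8 FPKM, and Mtf2 at 142 and 139 FPKM in LIF+BMP-4 and in LIF+serum. The median over the 42 genes was 0.03, and over all genes -0.02.

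**Figure D5:**
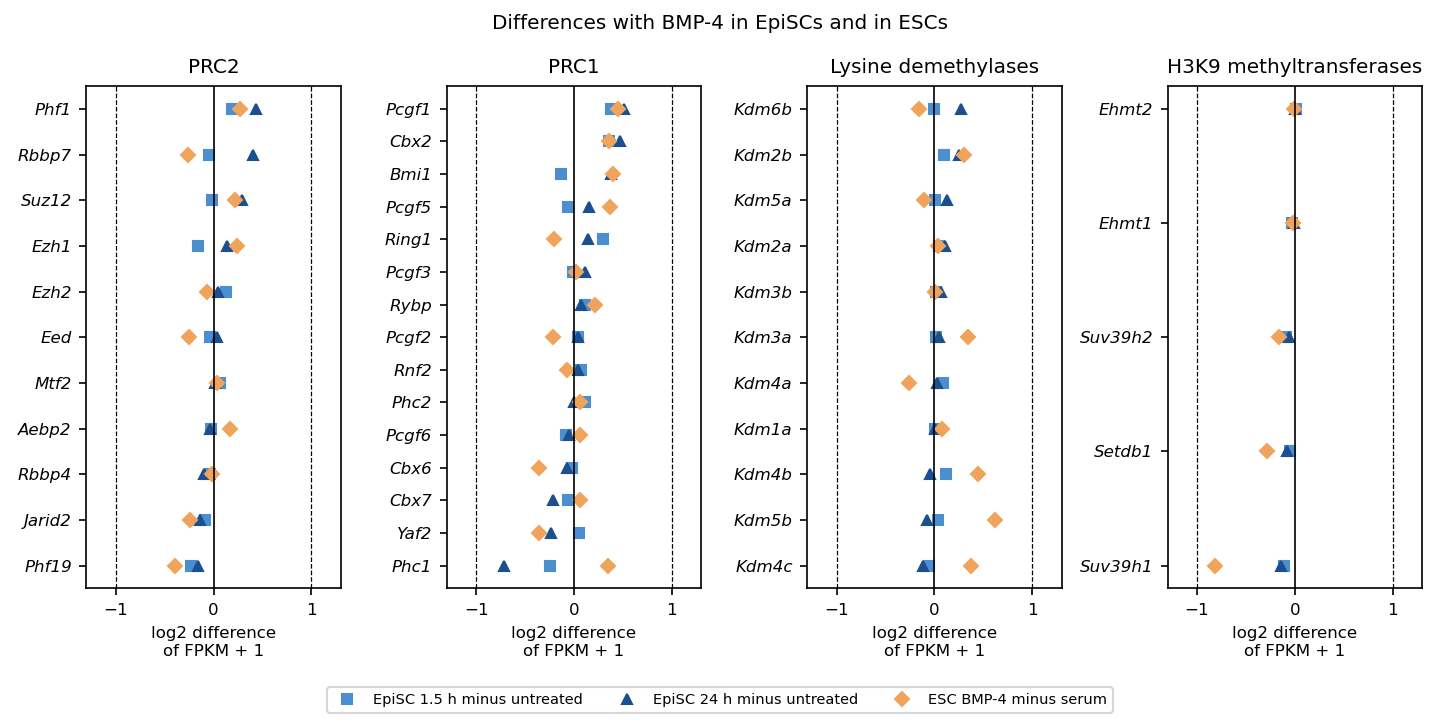
Difference of log2(FPKM + 1) with BMP-4 in EpiSCs after 1.5 h (squares) and 24 h (triangles) against untreated EpiSCs, and in ESCs in LIF + BMP-4 against LIF + serum (diamonds); dashed lines mark 2-fold. All points lie inside the dashed lines, with Phc1 after 24 h at -0.72 and Suv39h1 in ESCs at -0.82 farthest from 0.

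Within 1 state the members varied about as much as all genes did. The fold range over the 3 EpiSC libraries had a median of 1.09 over the 42 genes and 1.12 over all genes, and the fold between the ESC libraries had a median of 1.17 over both the members and all genes. The widest member in EpiSCs was Phc1 (1.65-fold) and in ESCs Suv39h1 (1.76-fold).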

How the data were processed

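Poly(A) RNA was made into directional libraries, 1 per group, per the labels' protocols. The authors deposited FPKM values per gene. The submitters' processing notes name TopHat, Cufflinks 2.0.13, Picard, SAMtools and mm9. Other values the authors deposited are confidence bounds, 95% by the definition of Cufflinks, and a status per library, per the file headers. The sources used here do not give annotation, filters or scaling. A status other than OK occurred for 8 genes, 0 of them members, and such genes left comparisons with that library. A listed 0 can be a failed estimate, since Hmgcs1 is at 0 in all 5 libraries.

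From these values differences of log2(FPKM + 1) and family shares were computed (Python 3.11.15, pandas 2.3.3, numpy 2.4.6) and tested on simulated data. Text names all 44 members and, of each list of related genes, up to 4 higher and 4 lower that were 2-fold apart against both ESC libraries. Members and lists were chosen with earlier results of these data known. Shared sequence was counted as 36-base stretches in GENCODE M21 transcripts. Deposited starts count from 0, since 8129 of 22460 spans equalled the RefSeq length when read so and 515 when read from 1, and are printed from 1. Depth came from steps of values below 0.5 FPKM, scaled on genes with 1 transcript over 1500 bases. On that scale 127 of 355 low genes (35.8%) were within 0.03 of whole reads, so totals are approximate. Alternatives were pseudocounts, filters, scalings, margins and left-out libraries.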

Additional observations from a re-analysis of the deposited data

How the results depend on the processing

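No paired analysis was possible because only 1 library was made per group. Pseudocounts of 0.1 and 0.5, no filter or a mean of at least 5 FPKM, division by total FPKM and centring on the median of all genes were tried, with a margin of 1.5-fold and a call that also required deposited intervals apart. For untreated EpiSCs against ESCs in LIF+serum, members lower numbered 13 at 1.5-fold in place of 4, and those higher numbered 0 in place of 2 with intervals apart. Against LIF+BMP-4, members higher numbered 5 at 1.5-fold and 0 with intervals apart in place of 3, and those lower 10 and 3 in place of 6. In ESCs 1 member in each direction passed 1.5-fold in place of 0, and after 24 h of BMP-4 1 member was lower in place of 0. With a pseudocount of 0.1, 1 member, Bmi1, was higher at 24 h than at 1.5 h in place of 0. With a 2-fold margin, members outside the ESC range numbered 2 higher in place of 8 and 4 lower in place of 22. Division by total FPKM moved the median of all members against LIF+serum to -0.000113, in place of -0.12. Leaving out either treated EpiSC library, or either ESC library, left both counts of members outside the range within 1.5 times. The other 137 alternatives left counts within 1.5 times and medians of all members within 0.1. Of class medians, 5 moved by over 0.1, among them PRC2 against LIF+BMP-4, at -0.72 with a mean of at least 5 FPKM. Depth limits low genes most: at 1 to 5 FPKM the upper bound of members lay a median of 105% to 113% above the value, and at 20 to 100 FPKM 50.6% to 52.3%.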

Other observations

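Related complexes were also measured. Of 12 genes of the H3K4 methyltransferase complexes compared, in untreated EpiSCs 3 were 2-fold lower than in LIF+serum ESCs and 1 was lower than in LIF+BMP-4 ESCs, where 9.55% and 10% of all genes were, with medians of -0.63 and -0.54, against -0.01 and 0.00 over all genes. Ash2l, a core subunit of these complexes, was lower against both, at 90.6, 87.3 and 85.4 FPKM in the untreated, 1.5 h and 24 h EpiSC libraries and at 252 and 247 FPKM in ESCs in LIF+BMP-4 and LIF+serum, with intervals apart. Of 16 NuRD and deacetylase genes compared, 0 were lower against either ESC library, while 1 was higher against LIF+serum and 2 against LIF+BMP-4, where 11.6% and 11% of all genes were. Their medians were 0.01 and -0.04. Chd3, a remodeller of NuRD, was higher against both, at 7.83, 9.41 and 16.3 FPKM in the untreated, 1.5 h and 24 h EpiSC libraries and at 2.41 and 1.67 FPKM in ESCs in LIF+BMP-4 and LIF+serum, with overlapping intervals. Its paralogue Chd4, which was picked after its values were seen, stood at 135 to 138 FPKM in EpiSCs and 120 to 121 FPKM in ESCs.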
